A study of Mus musculus with 6 samples.

Results

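Uterine glands were followed through 7 genes that mark them, given as a list of names: the transcription factor genes *Foxa2* and *Sox9*, and *Prss28*, *Prss29*, *Cxcl15*, *Ttr* and *Spink1*, whose products the glands secrete. All 7 were among the 56748 genes of each deposited table, and all 7 were among the 16605 that passed the filter on low counts. The tables came from whole uteri of females at day 4 (1600 h) of pregnancy, in the hours before embryo attachment. There were 3 control and 3 *Gp130* ecKO samples. The labels give the strain as C57BL/6, and the methods of the study give the background as C57BL/6J. The *Gp130* ecKO females were *Ltf* iCre/+ with *Gp130* flox/flox, so that the floxed receptor gene is removed where *Ltf* is active, mainly in uterine epithelium but also in some immune cells. The control samples are labelled WT, and the methods of the study allow either wildtype females or *Gp130* flox/flox females without iCre. All were sexually mature and had mated with a fertile wildtype male.

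The endometrial glands grow as tubes from the luminal epithelium into the stroma and secrete into the uterine lumen. FOXA2 is found in the gland cells and not in the luminal epithelium of the mouse uterus, and glands do not form or do not work without it. On day 4 the glands also release leukemia inhibitory factor, the cytokine that signals through GP130, so the comparison asks whether gland genes differ when the epithelium lacks that receptor. In RNA from a whole organ, fewer gland cells and less RNA per gland cell cannot be told apart.

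*Prss28* and *Prss29* encode the implantation serine proteinases 1 and 2, secreted trypsin-like enzymes, and they are neighbours on the plus strand of chromosome 17 of GRCm39. *Prss28* lies at chr17:25527617-25530852 and *Prss29* at chr17:25537620-25541659, with 6767 bases between them. Their upstream sequences are shown because these 2 genes had similar patterns over the uteri, as described further on. Each line gives the 250 bases before the start of the canonical transcript (GENCODE M39), 5′ to 3′, chr17:25527367-25527616 for *Prss28* and chr17:25537370-25537619 for *Prss29*, with capitals for every run of 10 or more bases that both windows hold.
Prss28: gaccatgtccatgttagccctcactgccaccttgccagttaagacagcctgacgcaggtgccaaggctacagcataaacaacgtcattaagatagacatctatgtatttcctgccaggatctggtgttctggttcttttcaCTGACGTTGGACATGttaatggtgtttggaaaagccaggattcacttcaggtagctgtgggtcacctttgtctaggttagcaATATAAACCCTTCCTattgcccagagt
Prss29: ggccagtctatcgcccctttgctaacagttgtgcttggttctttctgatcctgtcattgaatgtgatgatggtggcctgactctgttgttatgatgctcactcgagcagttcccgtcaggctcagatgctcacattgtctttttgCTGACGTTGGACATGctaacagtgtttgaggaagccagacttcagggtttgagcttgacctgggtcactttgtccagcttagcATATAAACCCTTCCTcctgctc
Both windows held 2 such runs of 15 bases. The run nearer the start began 27 bases before it in *Prss28* and 22 bases before it in *Prss29*, and the other began 109 and 105 bases before it. Of 21770 windows of protein-coding genes, each run was in 2, those of *Prss28* and *Prss29*. Despite this likeness no stretch of 75 bases, the read length, was shared between their transcripts, where the longest shared run was 27 bases, so a full-length read cannot fit both without a mismatch.

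The windows of 250 bases before the start of each gene's canonical transcript, which for *Ttr* lies within the gene span, were searched on both strands for words of the forkhead motif that FOXA2 binds, which were TGTTTAC or TGTTTGC or TATTTAC or TATTTGC. Among the 7 genes, a word was found in *Cxcl15* and in *Spink1*, and 11.6% of all windows hold one. That of *Cxcl15* (chr5:90942143-90942392, plus strand, the forkhead word in capitals) is shown because, of the other 6 genes, *Cxcl15* had the narrowest range relative to *Foxa2*.
Cxcl15: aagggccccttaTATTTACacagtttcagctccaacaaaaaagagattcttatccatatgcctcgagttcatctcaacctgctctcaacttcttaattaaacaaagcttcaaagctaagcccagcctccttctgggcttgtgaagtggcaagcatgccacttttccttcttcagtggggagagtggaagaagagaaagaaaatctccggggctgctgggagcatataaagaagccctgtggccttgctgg
The SOX words ACAATGG or ACAAAGG occurred in *Prss28* alone, and 7.13% of all windows hold one. The STAT word TTCNNNGAA, which 7.70% of windows hold, and the palindromic estrogen response element, held by 11 windows, were in none of the 7. A match or its absence describes these letters in this window and says nothing of binding.

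The libraries held 13960748 to 25906443 expected counts, with the lowest total in control 3. Log2 CPM profiles correlated across genes at 0.895 to 0.969 between libraries. Control 2 stood apart from its group in that it correlated with the *Gp130* ecKO libraries at 0.946 to 0.967 and with the other controls at 0.946 to 0.958, so values without it are given. *Il6st*, which encodes GP130, had 452 to 678 CPM (the count relative to the TMM-scaled library total) in the control and 349.8 to 388 CPM in *Gp130* ecKO without overlap (change on the log2 scale −0.68, standard error, SE, 0.21, adjusted p = 0.120 by the quasi-likelihood test of edgeR). The summed level of 8 general epithelial markers was 2248 to 3976 CPM in the control and 5473 to 7164 CPM in *Gp130* ecKO, and that of 8 markers of the luminal epithelium was 811 to 2268 and 3141 to 5020 CPM. The sum of 7 stromal markers was 3133 to 4157 CPM in the control and 1895 to 2424 CPM in *Gp130* ecKO, and that of 4 endothelial markers 307 to 744 and 169 to 305 CPM. The groups did not overlap in any of these 4 sums, and their part in the gland values was not tested. Relative to the summed general epithelial markers, whose own mean log2 difference was 0.94, the mean difference in log2 CPM, taken here without a pseudocount and not from the fit, was −0.65 for *Foxa2*, −1.26 for *Sox9*, 1.72 for *Prss28*, 2.51 for *Prss29*, −0.88 for *Cxcl15*, −0.25 for *Ttr* and −2.58 for *Spink1* (exact permutation test, p from 0.2 to 0.8). Among the 8 general epithelial markers the fitted log2 change ran from −0.19 for *Epcam* to 2.19 for *Krt19*. Of the 8, 5 were higher in *Gp130* ecKO without overlap and 3, *Epcam* among them, overlapped. *Krt8* and *Cdh1* are among these markers. The study reports higher levels of both their proteins in the epithelium of *Gp130* ecKO. Whether the scaled differences reflect the gland genes or the markers themselves was not tested. The 5 smooth muscle markers summed to between 339 and 2209 CPM with both ends in *Gp130* ecKO, and the 4 macrophage markers to between 31.8 and 69.1 CPM.

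The gland transcription factors were present in every uterus and did not separate the groups. *Foxa2* (ENSMUSG00000037025, chromosome 2, 147884797 to 147889005, minus strand) measured 16.3, 39.3 and 10.8 CPM in the control uteri (samples 1, 2, 3) against 25.0, 11.5 and 43.4 CPM in the *Gp130* ecKO uteri (samples 1, 2, 3). Control 2 and *Gp130* ecKO 3 were the highest and the groups overlapped. The means were 22.1 ± 15.1 CPM (SD, n = 3) and 26.6 ± 16.0 CPM (SD, n = 3), and the fitted log2 change of 0.26 (SE 0.59) was smaller than its error (adjusted p = 0.799 by edgeR). The change was −0.06 without control 3 and −0.27 without *Gp130* ecKO 3.
*Sox9* (ENSMUSG00000000567, chromosome 11, 112673009 to 112678586), a factor of progenitor and gland epithelium, measured 40.5, 27.1 and 8.07 CPM in the control uteri (samples 1, 2, 3) against 35.5, 6.65 and 19.2 CPM in the *Gp130* ecKO uteri (samples 1, 2, 3). Control 1 and *Gp130* ecKO 1 were the highest of their groups, and the ranges overlapped. The log2 fold change was −0.31 (SE 0.69, adjusted p = 0.799 by edgeR), and it was 0.22 without control 1 and 0.12 without *Gp130* ecKO 2. *Sox9* and *Foxa2* did not order the uteri alike, since *Foxa2* was highest in *Gp130* ecKO 3 and *Sox9* in control 1.

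The secreted proteases varied at least 134-fold between the uteri of a group. *Prss28* (ENSMUSG00000024171) measured 178, 0.463 and 8.20 CPM in the control uteri (samples 1, 2, 3) against 1876, 18.0 and 4.97 CPM in the *Gp130* ecKO uteri (samples 1, 2, 3). Behind these values lay 4396, 12 and 123 counts in the control and 41491, 467 and 120 counts in *Gp130* ecKO. Control 1 and *Gp130* ecKO 1 were high and the other 4 uteri low, so the highest uterus exceeded the lowest 384-fold among the control and 377-fold among *Gp130* ecKO.
*Prss29* (ENSMUSG00000034039) measured 523, 1.70 and 23.7 CPM in the control uteri (samples 1, 2, 3) against 6546, 84.9 and 48.9 CPM in the *Gp130* ecKO uteri (samples 1, 2, 3). The same 2 uteri were high and control 2 was again the lowest. In *Gp130* ecKO 1 the *Prss29* level was 8224 TPM (the deposited level, corrected for transcript length), against 1.99 TPM in control 2. Within a uterus the TPM of *Prss29* was 2.86 to 8.84 times that of *Prss28*, a ratio that varied 3.09-fold over the 6 uteri.
For both genes the SD of each group exceeded its mean. The means were 62.2 ± 100.2 CPM (SD, n = 3) and 633 ± 1076 CPM (SD, n = 3) for *Prss28*, and the fitted log2 change was 3.35 (SE 2.37, adjusted p = 0.404 by edgeR). For *Prss29* they were 183 ± 295 and 2227 ± 3741 CPM (SD, n = 3), and the change was 3.61 (SE 2.30, adjusted p = 0.357 by edgeR). Leaving out *Gp130* ecKO 1 turned both differences, to −2.44 and −1.45, and leaving out control 1 raised them to 7.29 and 7.51. The exact permutation test gave p = 0.6 and p = 0.4, where 3 uteri against 3 cannot go below 0.1.

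**Figure D1:**
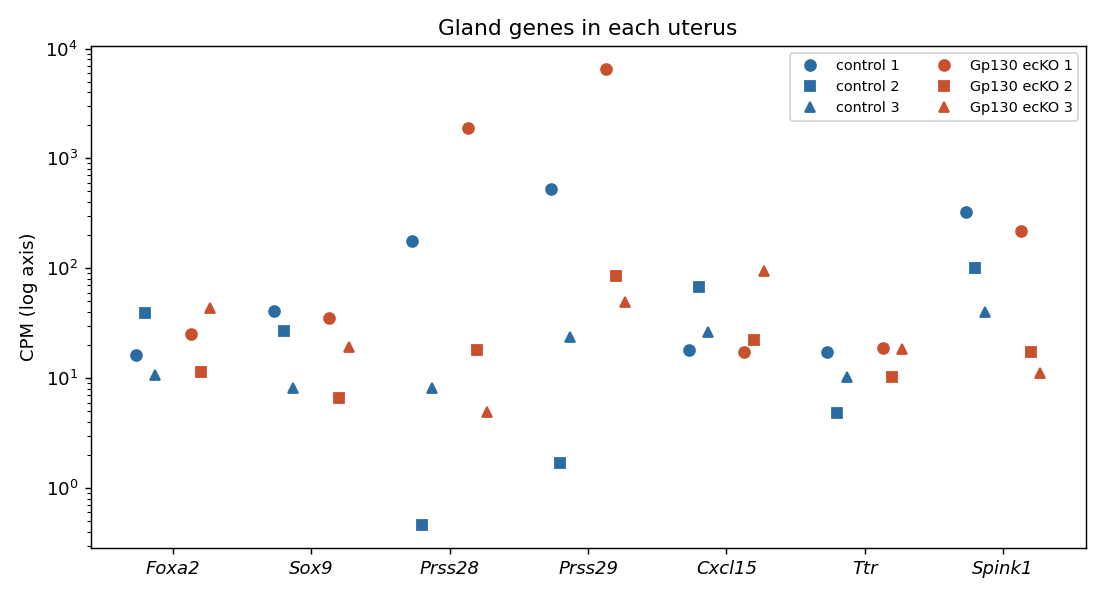
CPM of the 7 gland genes on a log axis, with 1 point per uterus (3 control, 3 *Gp130* ecKO) and a marker shape for the sample number, which the labels do not describe as a pairing. *Prss28* and *Prss29* span from 0.463 to 6546 CPM with control 1 and *Gp130* ecKO 1 on top, and no gene separates the groups.

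*Spink1* (ENSMUSG00000024503, chromosome 18, 43861139 to 43870622, minus strand) encodes a secreted inhibitor of trypsin. It measured 327, 99.7 and 39.7 CPM in the control uteri (samples 1, 2, 3) against 219, 17.3 and 11.2 CPM in the *Gp130* ecKO uteri (samples 1, 2, 3). *Gp130* ecKO 2 and 3 lay below every control uterus, and *Gp130* ecKO 1 above controls 2 and 3. The log2 fold change was −0.91 (SE 1.17, adjusted p = 0.649 by edgeR). It was −3.45 without *Gp130* ecKO 1 (unadjusted p = 0.00783, adjusted p = 0.237 by edgeR) and 0.25 without control 1, so either of these uteri decided its size or sign. Like the proteases, *Spink1* was highest in control 1 and *Gp130* ecKO 1, but control 2, the lowest uterus for *Prss28* and *Prss29*, had the third highest *Spink1* value.

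*Cxcl15* (ENSMUSG00000029375, chromosome 5, 90942393 to 90950926), a chemokine secreted by gland cells in the uterus, measured 18.2, 67.9 and 26.1 CPM in the control uteri (samples 1, 2, 3) against 17.3, 22.3 and 93.8 CPM in the *Gp130* ecKO uteri (samples 1, 2, 3). Control 2 and *Gp130* ecKO 3 were the highest, the 2 uteri that were also highest for *Foxa2*, and the uteri with high protease values were the lowest. The log2 fold change was 0.25 (SE 0.73, adjusted p = 0.847 by edgeR). It was −0.06 without control 1 and −0.89 without *Gp130* ecKO 3.
*Ttr* (ENSMUSG00000061808, chromosome 18, 20797253 to 20807467) encodes transthyretin, the carrier of thyroxine and of retinol-binding protein. It varied least of the 7 genes, at 17.2, 4.86 and 10.2 CPM in the control uteri (samples 1, 2, 3) against 18.9, 10.2 and 18.5 CPM in the *Gp130* ecKO uteri (samples 1, 2, 3). The log2 fold change was 0.56 (SE 0.47, adjusted p = 0.478 by edgeR), and it stayed between 0.23 and 1.12 with each uterus left out. The groups overlapped. Of 5 genes of liver or yolk sac, which make much transthyretin, none exceeded 1.07 CPM in any uterus.

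None of the 7 genes was called at an adjusted p below 0.05 and more than 2-fold change, where 0.157% of all tested genes were (0.126% higher, 0.0301% lower in *Gp130* ecKO). None had an unadjusted p below 0.05, as 25.0% of all tested genes did (12.1% higher, 12.9% lower). The groups overlapped for all 7, whereas they did not overlap for 31.3% of all tested genes (15.7% higher, 15.6% lower). DESeq2 and edgeR's exact test called none either, although they called 9.29% and 7.54% of the tested genes, and DESeq2 gave no p for *Prss28* and *Prss29*. Without control 2, 5.23% of the genes then tested were called and again none of the 7, with log2 fold changes of 1.00 for *Foxa2*, −0.24 for *Sox9*, 2.77 for *Prss28*, 3.03 for *Prss29*, 1.05 for *Cxcl15*, 0.23 for *Ttr* and −1.14 for *Spink1* (adjusted p from 0.284 to 0.872 by edgeR). A p above the threshold does not show equal levels, since the standard errors, from 0.47 for *Ttr* to 2.37 for *Prss28*, leave room for large differences.

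**Figure D2:**
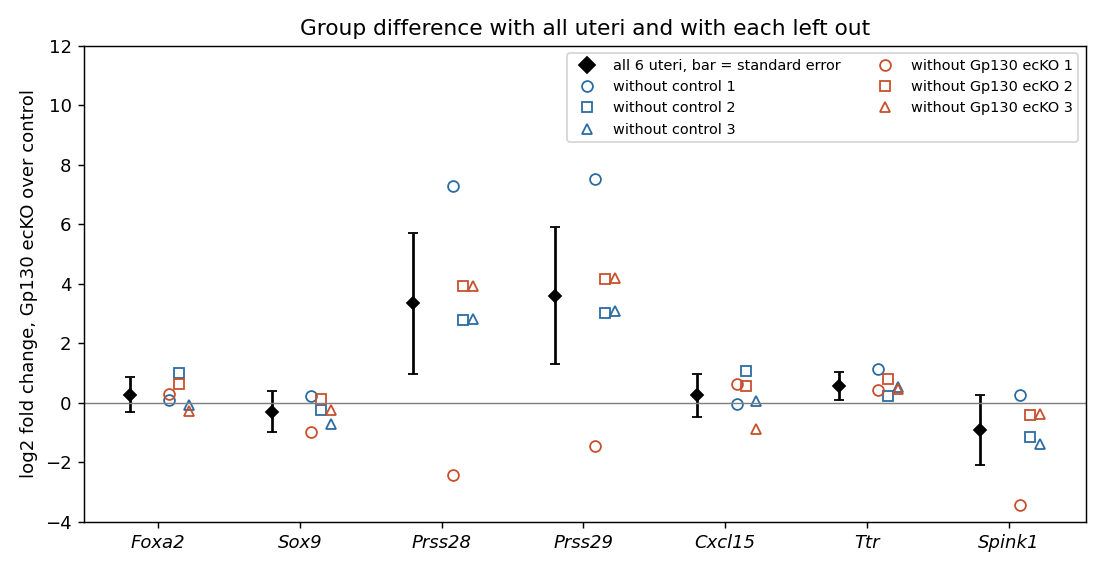
Log2 fold change of each gland gene, *Gp130* ecKO over control. Black diamonds are the fit over 6 uteri with the standard error as a bar, and open markers are the fit without the uterus named. For *Prss28* and *Prss29* the marker without *Gp130* ecKO 1 falls below 0, to −2.44 and −1.45, and for *Spink1* it falls to −3.45.

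All 7 genes varied more between uteri of the same group than the median tested gene. The within-group SD of log2(CPM + 0.5), pooled over both groups, was 4.13 for *Prss28* and 3.91 for *Prss29*, against a median of 0.33 over the 16605 tested genes. They ranked 2 and 3 of all tested genes, the highest having 4.53. *Spink1*, with 1.94, ranked 50. *Sox9* had 1.18, *Cxcl15* 1.14 and *Foxa2* 0.93, each above at least 94.6% of tested genes, and *Ttr* had 0.70, above 87.8%. The spread was present in both groups, with 3.78 in the control and 4.44 in *Gp130* ecKO for *Prss28*, and 0.93 and 0.94 for *Foxa2*. *Ttr* had 0.87 and 0.49.

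**Figure D3:**
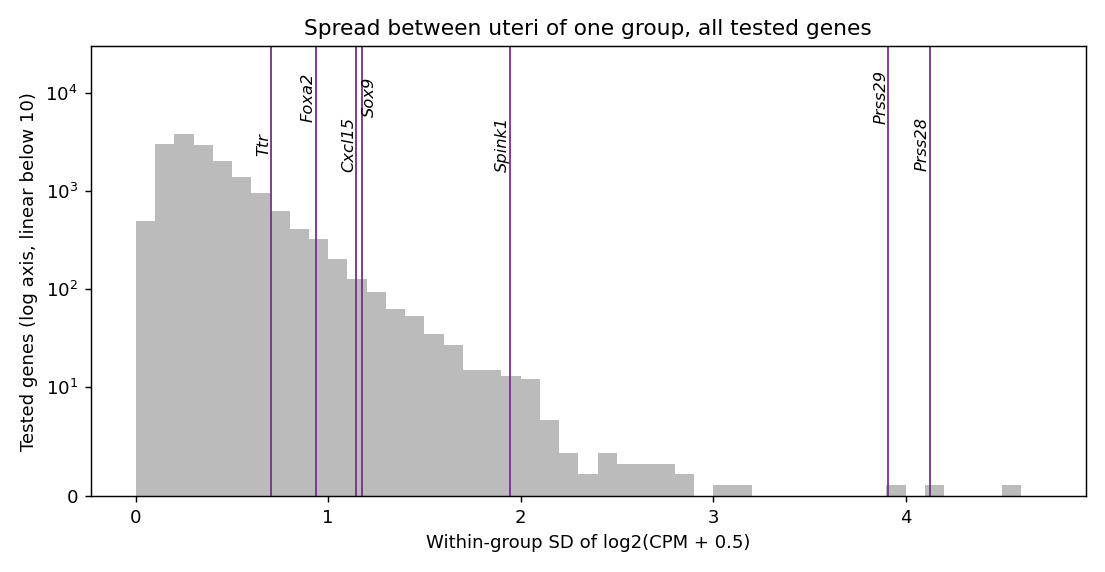
Histogram of the within-group SD of log2(CPM + 0.5) over 16605 tested genes in bins of 0.1 (vertical axis logarithmic above 10), with a line for each gland gene. *Prss29* at 3.91 and *Prss28* at 4.13 lie at the far right, and all 7 lie above the median of 0.33.

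To compare gland genes with each other within a uterus, the TPM of each was divided by that of *Foxa2*. *Cxcl15* had the narrowest range of the 6, between 0.671 and 2.35 times *Foxa2*, a 3.50-fold range. *Sox9* ranged from 0.215 to 1.22 times and *Ttr* from 0.220 to 1.90 times. *Spink1* was 0.776 times *Foxa2* in *Gp130* ecKO 3 and 61.4 times in control 1. *Prss29* ran from 0.0769 times in control 2 to 471 times in *Gp130* ecKO 1, and *Prss28* from 0.0213 to 144 times in the same uteri. Level per length therefore ordered the genes differently from uterus to uterus. *Spink1* led in all 3 control uteri, *Prss29* in *Gp130* ecKO 1 and 2, and *Cxcl15* in *Gp130* ecKO 3. The 7 genes together took 11271 TPM in *Gp130* ecKO 1, 1455 TPM in control 1 and 165 to 284 TPM in the other 4 uteri.

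**Figure D4:**
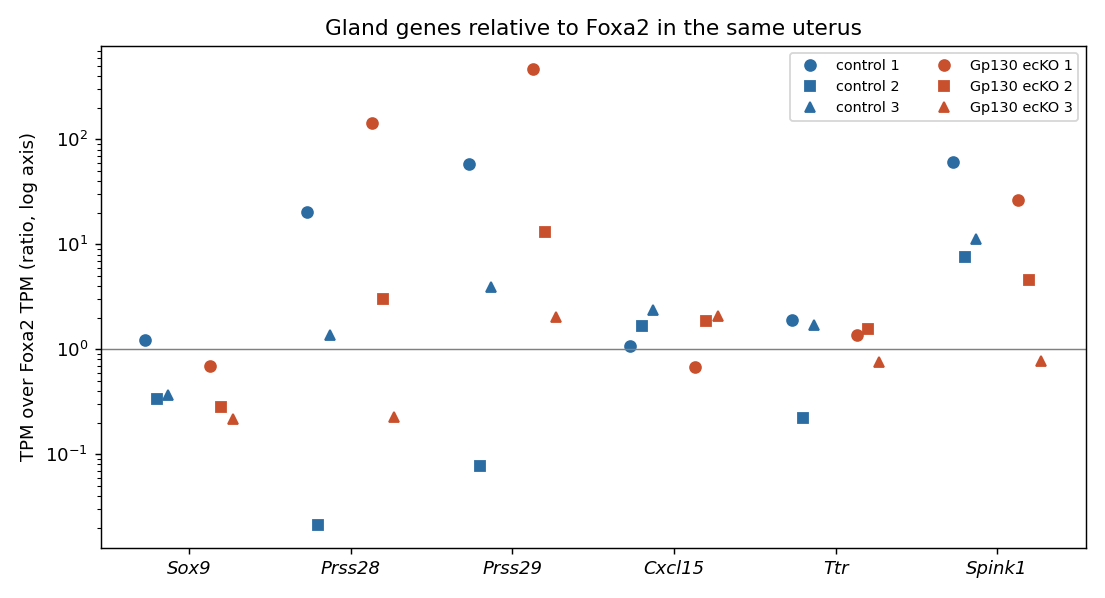
TPM of each of the other 6 gland genes divided by the TPM of *Foxa2* in the same uterus, on a log axis, with the grey line at 1. *Cxcl15* lies between 0.671 and 2.35 in all uteri, and *Prss28* and *Prss29* run from below 0.1 in control 2 to above 100 in *Gp130* ecKO 1.

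Likeness of pattern was measured as the root mean square (RMS) difference between log2(CPM + 0.5) profiles over the 6 uteri, each centred on its own mean, among 14762 other genes with a mean of at least 1 CPM. The gene nearest to *Prss28* was *Prss29*, at an RMS difference of 0.65 log2 units where the median gene was at 3.59. *Prap1*, which encodes a proline-rich acidic protein of epithelia, followed at 1.62 and had 278 CPM in *Gp130* ecKO 1, 132 CPM in control 1 and 2.85 CPM in control 2. *Upk3bl* and *Lypd1* came next at 2.19 and 2.27. Nearest to *Foxa2* were *Tle6*, *Ggnbp1*, *Aldh1a1*, *Tst* and *Tmem147os*, at 0.33 to 0.38 where the median was 0.86. *Aldh1a1*, a retinaldehyde dehydrogenase, was itself on the list of other gland genes. Nearest to *Spink1* were *Gdpd3* at 0.48, then *Frmd5*, the epithelial matrix protease gene *Mmp7*, *Ccn2* and *Arhgef37* at 0.88 to 0.99, where the median was 1.82. These profiles rest on 6 uteri and are a description.

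Of 11 other genes expressed in glands, 8 were tested and none was called. The groups did not overlap for *Lif*, *Fxyd4* and *Lgr4*, higher in *Gp130* ecKO, and *Lgr5*, lower. Among all tested genes 31.3% did not overlap (15.7% higher, 15.6% lower). The median log2 fold change of the 8 was 0.46, against −0.05 over all tested genes. *Lif*, the gland cytokine itself, measured 5.66, 11.3 and 29.5 CPM in the control uteri (samples 1, 2, 3) against 44.8, 48.8 and 38.3 CPM in the *Gp130* ecKO uteri (samples 1, 2, 3). Its log2 fold change was 1.52 (SE 0.53, adjusted p = 0.148 by edgeR), with an adjusted p between 0.0390, from DESeq2, and 0.318 and a log2 fold change between 1.15 and 2.37 over the alternatives. *Lgr5*, a receptor for R-spondins and a WNT target, measured 164, 12.4 and 39.7 CPM in the control uteri (samples 1, 2, 3) against 4.34, 1.58 and 1.12 CPM in the *Gp130* ecKO uteri (samples 1, 2, 3). That was the largest difference of the list, with a log2 fold change of −4.95 (SE 1.04, adjusted p = 0.0751 by edgeR) that lay between −5.73 and −3.44 over the alternatives, and it passed with DESeq2, with edgeR's exact test and without control 2. *Fxyd4*, which regulates the sodium pump, had a log2 fold change of 1.72 (1.23 to 3.57 over the alternatives) and passed without control 2. *Lgr4* had 0.62 and passed in none of the alternatives. *Dcpp1*, *Dcpp2* and *Dcpp3* had 0 counts in all uteri, where 3 counts would be 0.115 to 0.136 CPM in the *Gp130* ecKO uteri.

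The other forkhead A genes were nearly absent, *Foxa1* with 1 count over the 6 uteri and *Foxa3* with at most 3 counts in any, while *Foxa2* had at least 162 counts in each. Of 10 epithelial transcription factors listed, 6 were tested and none was called. *Sox17*, which is needed for gland formation, measured 347, 564 and 307 CPM in the control uteri (samples 1, 2, 3) against 640.3, 783 and 679 CPM in the *Gp130* ecKO uteri (samples 1, 2, 3) (log2 fold change 0.79, adjusted p = 0.140 by edgeR). *Emx2*, a homeobox gene of the reproductive tract, had 51.4 ± 13.4 CPM (SD, n = 3) and 90.7 ± 4.0 CPM (SD, n = 3), which gave a fitted log2 change of 0.82 (adjusted p = 0.0979 by edgeR). *Lef1*, a transcription factor of the WNT pathway, had 50.7, 41.1 and 91.5 CPM in the control against 11.6, 30.0 and 7.17 CPM with *Gp130* deleted (log2 fold change −1.91, adjusted p = 0.112 by edgeR). The groups did not overlap for these 3, beside 31.3% of all tested genes (15.7% higher, 15.6% lower). With DESeq2 all 3 passed an adjusted p of 0.05, *Emx2* and *Lef1* also with edgeR's exact test, and *Sox17* also without control 2. *Pax2*, whose groups overlapped, had a log2 fold change of 1.13 (unadjusted p = 0.0271, adjusted p = 0.156 by edgeR).
All 11 genes of WNT and hedgehog signaling in gland formation were tested, and none was called. Only *Ctnnb1*, which encodes β-catenin, did not overlap between the groups (log2 fold change 0.43, adjusted p = 0.326 by edgeR). Over all tested genes 31.3% did not overlap. The median log2 fold change of the 11 was −0.14. At an unadjusted p below 0.05 none of the 11 was higher and 2 were lower, beside 12.1% and 12.9% of all tested genes, with overlapping groups, namely *Wnt7b* (log2 fold change −3.77, unadjusted p = 0.0213, adjusted p = 0.141 by edgeR), which measured 313 CPM in control 1 and 4.88 to 33.7 CPM in the other 5 uteri, and *Rspo1* (−0.81, unadjusted p = 0.0395, adjusted p = 0.180 by edgeR), both chosen after their values were seen.

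**Figure D5:**
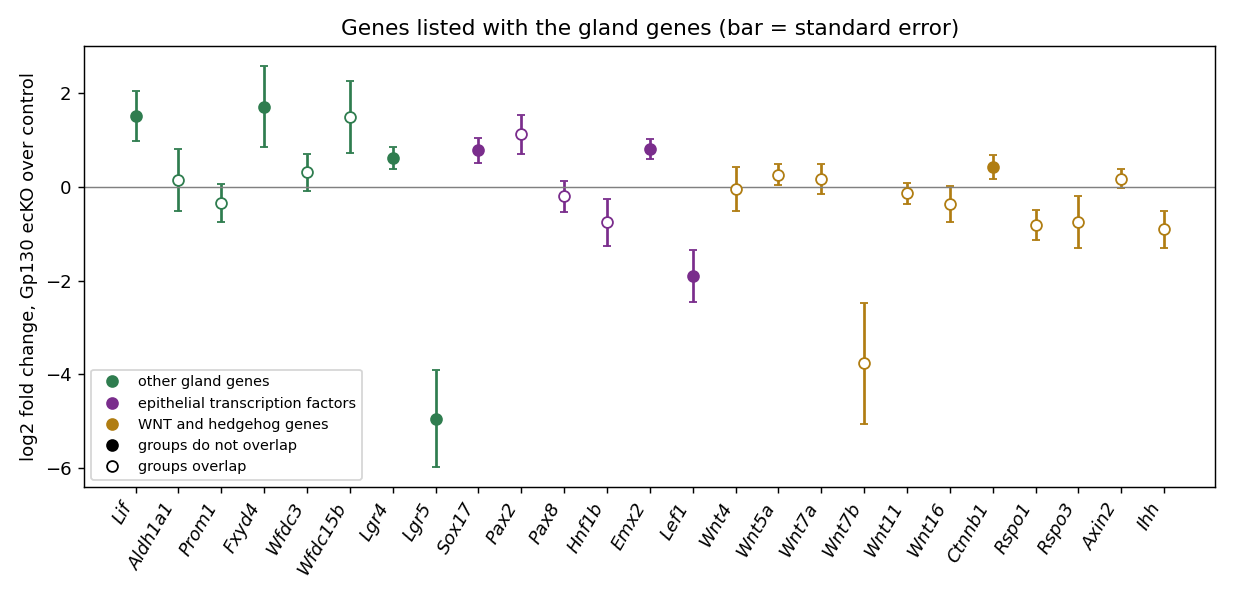
Log2 fold change, *Gp130* ecKO over control, with its standard error for the tested genes of 3 lists (other gland genes, epithelial transcription factors, WNT and hedgehog genes). Filled points are genes whose groups do not overlap, and *Lgr5* at −4.95 lies lowest.

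Of 5 further serine protease genes of chromosome 17, of which 4 neighbour *Prss28* and *Prss29* and *Prss30* lies apart from them, only *Tpsb2*, a mast cell tryptase, was tested. It measured 6.43, 4.24 and 3.27 CPM in the control uteri (samples 1, 2, 3) against 0.678, 0.615 and 3.11 CPM in the *Gp130* ecKO uteri (samples 1, 2, 3) (log2 fold change −1.67, adjusted p = 0.174 by edgeR), and did not follow its neighbours. The log2 fold change of *Tpsb2* lay between −2.82 and −1.29 over the alternatives, and the gene passed in none. The 5 mast cell markers, *Tpsb2* among them, summed to 10.9 to 21.0 CPM in the control and 1.90 to 10.7 CPM in *Gp130* ecKO. *Prss34*, which lies next to *Prss28*, had at most 4 counts in any uterus, and *Tpsg1*, which had at most 8 counts and was not tested, was lower in every *Gp130* ecKO uterus than in any control. Of 8 further *Spink* genes only *Spink8* was tested, at 0.445 to 6.55 CPM with overlapping groups, and 4 of 5 pancreatic markers had at most 0.243 CPM, the exception being *Cela1*, whose groups did not overlap at 3.28 to 4.93 CPM in the control and 0.678 to 2.53 CPM in *Gp130* ecKO (adjusted p = 0.177 by edgeR).
Among 7 chemokines and receptors of the CXCL1 type, *Cxcl5* was the only one tested, with 64, 19 and 35 counts in controls 1, 2 and 3, and 0 in every *Gp130* ecKO uterus. Set against a floor of 3 counts per uterus the level with *Gp130* deleted was at least 15.1-fold lower (adjusted p = 0.0695 by edgeR), and at least 12.3-fold lower with any 1 control left out. It passed with DESeq2, with edgeR's exact test and without control 2. Its adjusted p ranged from 2.71e-07 to 0.190 over the alternatives. *Cxcl1*, *Cxcl3*, *Ppbp* and *Cxcr2*, with at most 11 counts and not tested, also did not overlap and were lower in *Gp130* ecKO. Among all tested genes 15.6% were lower without overlap, and no such share was taken over untested genes with so few counts. *Cxcl15* overlapped between the groups. Of 8 genes of retinol and thyroxine handling, all tested and none called, *Rbp4*, which encodes the retinol-binding protein of plasma, had groups that did not overlap (log2 fold change −1.59, adjusted p = 0.167 by edgeR).
Markers of lung, where *Cxcl15* is also made, were at 0 for 3 of 4 genes and at 1 count in all for the fourth. Of 4 blastocyst markers *Eomes* alone passed the filter, at 0.912 to 7.001 CPM with overlapping groups. Of the 2 oviduct markers *Foxj1* had at most 3.32 CPM, and *Ovgp1*, an oviductal glycoprotein gene, rose from 47.9 to 85.3 CPM in the control to 552 to 1193 CPM in *Gp130* ecKO (change on the log2 scale 3.68, adjusted p = 0.0377 by edgeR). It lost the call under the legacy form and without any 1 uterus other than control 2, with an adjusted p of at most 0.137.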

How the data were processed

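RNA from whole uteri (3 control, 3 *Gp130* ecKO) was made into strand-specific poly(A) libraries and read from a single end. Per the labels and the methods of the study, the authors trimmed reads with fastp 0.23.2, removed ribosomal reads, mapped to GRCm39 with STAR 2.7.10a and estimated the deposited expected counts, TPM and FPKM with RSEM 1.3.3. The annotation version and the use of strand in counting are not given in the sources used here. FPKM deposited by the authors was not used. TPM served to compare levels between genes and, for *Prss29* and the sum of the members, also between uteri.

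The expected counts, rounded to integers, were fitted with edgeR 4.0.16 in R 4.3.3 (filterByExpr, TMM, quasi-likelihood F test without the legacy setting and without a replicate block, Benjamini-Hochberg adjustment over 16605 genes). Calls needed an adjusted p below 0.05 and more than 2-fold change. The script was tested on simulated data. Standard errors were derived from the F statistic and the log2 fold change. DESeq2 1.42.0 and other settings were alternatives. Symbols and coordinates came from GENCODE M39 on GRCm39, which held 56017 of 56748 identifiers. No antisense or overlapping gene of a member in the tables exceeded 0.290 CPM. The members and lists were chosen with earlier results of these data known. Genes of the lists were named where groups did not overlap or where they neighbour or resemble a member, and by likeness of pattern the 5 nearest genes to *Foxa2*, *Prss28* and *Spink1*. Other list genes named were chosen after their values were seen, and some genes that the rule names are not reported here. The p-values set the group difference against the spread between these samples. Nothing in the labels says how samples of a group relate, so whether that spread is one between independent animals is not known. Uteri with more counts give more precise values for low genes.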

Additional observations from a re-analysis of the deposited data

How the results depend on the processing

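Called genes numbered 26 over all genes, 1542 with DESeq2, 1252 with edgeR's exact test, 7 with the legacy form, 105 without a filter and 6 with the replicate number as a block. With 1 uterus left out they numbered 1 to 897, the highest without control 2. None of the 7 members was called under any of these settings. Nothing in the labels says whether samples of the same number belong together. The deviations of same-numbered uteri from their group means correlated across genes at 0.104, 0.0691 and −0.196. Control 3 correlated best with *Gp130* ecKO 2 (0.22). Because each deviation is from a mean of 3 uteri, these correlations cannot decide whether same-numbered uteri shared a batch or day. Under the replicate block the log2 fold changes were 0.31 for *Foxa2*, −0.32 for *Sox9*, 2.64 for *Prss28*, 3.40 for *Prss29*, 0.04 for *Cxcl15*, 0.68 for *Ttr* and −1.64 for *Spink1*, with the lowest adjusted p, 0.114, for *Spink1*. There the unadjusted p by edgeR was 0.00596 for *Spink1* and 0.0109 for *Prss29* (adjusted p = 0.134). Without control 1 the unadjusted p by edgeR was 0.0442 for *Prss28*, 0.0306 for *Prss29* and 0.0405 for *Ttr* (adjusted p from 0.225 to 0.249).

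Other tests, normalizations and filters kept the sign for all 7 genes. Leaving out 1 uterus gave ranges of −0.27 to 1.00 for *Foxa2*, −0.97 to 0.22 for *Sox9*, −2.44 to 7.29 for *Prss28*, −1.45 to 7.51 for *Prss29*, −0.89 to 1.05 for *Cxcl15*, 0.23 to 1.12 for *Ttr* and −3.45 to 0.25 for *Spink1*. The signs turned without control 3 (*Foxa2*, −0.06), *Gp130* ecKO 3 (*Foxa2* and *Cxcl15*), control 1 (*Sox9*, *Spink1* and *Cxcl15*, the last −0.06), *Gp130* ecKO 2 (*Sox9*, 0.12) and *Gp130* ecKO 1 (*Prss28* and *Prss29*). Scaling to the 8 general epithelial markers, an alternative added after seeing the data, lowers every gene by the log2 difference of the marker sum itself, and with it *Foxa2*, *Cxcl15* and *Ttr* were at −0.65, −0.88 and −0.25. The mean of log2(CPM + 0.5) in place of the fit, also added, turned no sign and gave 0.28 for *Foxa2*, −0.31 for *Sox9*, 2.33 for *Prss28*, 3.32 for *Prss29*, 0.06 for *Cxcl15*, 0.65 for *Ttr* and −1.62 for *Spink1*. The cause of the changes on leaving out a uterus was not tested.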
